A study of Homo sapiens with 14 samples.

Results

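Intervals with the highest values in the treated ChIP-seq lists were described here: the distinct activator STAT5 intervals with a value of 4 or more in both libraries, and the distinct inhibitor BCL6 intervals with a value of 3 or more in all 3 libraries. There were 755 such high-value intervals among the 15699 treated intervals and the 152412 intervals of the 4 separate lists. Of these, 655 were activator STAT5 intervals (4.66% of the 14047 listed) and 100 were inhibitor BCL6 intervals (6.05% of the 1652 listed). The intervals were chosen by these library values, which are therefore given as descriptions with no test. Each set was split by whether an interval lay within 5 Mb of a centromere, counted from the nearer edge of the 3 Mb centromere gap of GRCh37: 50 activator STAT5 and 10 inhibitor BCL6 intervals did, and 605 and 90 did not.

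The study mapped STAT5 and BCL6 near gene starts in DLD-1, an established human colorectal adenocarcinoma line, under changed RAC1/PAK1 signalling. Cells of all groups were transfected with Lipofectamine, and the ChIP followed 20 h later. The activator cells carried pEGFP-C1199Tiam1, which codes for a fragment of TIAM1, an exchange factor that loads RAC1 with GTP, and received vehicle. The inhibitor cells carried the same plasmid and received 20 microM EHT 1864, an inhibitor of RAC GTPases, for 16 h. The control cells carried the empty vector and received no EHT 1864 in the same 16 h step. Used here are 2 activator STAT5, 3 inhibitor BCL6, 2 control STAT5 and 2 control BCL6 libraries. The activator list holds STAT5 libraries and the inhibitor list BCL6 libraries, so treatment and antibody cannot be told apart between these lists. Intervals measure no expression, so the colon origin of the cells was not checked against markers.

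STAT5, which acts downstream of cytokine receptors and mostly activates its genes, and BCL6, a repressor, recognise similar DNA motifs. The DNA beside centromeres is rich in satellite repeats and in duplicated segments, and ribosomal RNA genes, U2 spliceosomal RNA genes and the NBPF and DUX4 families are known in many near-identical copies. An assembly holds only some of these copies, and reads from a family cannot always be assigned to 1 of them. No repeat annotation was used here, so repeat content was not measured; the families are named from the gene symbols and descriptions in the files. Which copy of such a gene gave the reads is uncertain.

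In 22 genes a high-value activator STAT5 interval reached into the 250 bp before or 50 bp after the gene start listed in the files, and 3 of the 22 had a STAT5-type motif in their RefSeq promoter (13.6%, 2.91% to 34.9%). Of these genes, UBE2J1 and POLK are shown because they had the highest values, and BCL6 because it codes for the other factor of the study. The 3 were picked with their motifs known and do not stand for the 22. BCL6 had 5 and 5 in the 2 activator STAT5 libraries over an interval at -535 to -208 bp from the listed gene start. POLK, a DNA polymerase that copies past damaged bases, had 5 and 11 at -675 to -181 bp, in an interval also listed for COL4A3BP. UBE2J1, a ubiquitin-conjugating enzyme of the endoplasmic reticulum, had 7 and 7 over 63 bp, from 34 to 96 bp downstream. The sequences run from 250 bases before to 50 after the first start that RefSeq lists for each gene in GRCh38.p14, which need not be the start used in the files, so the intervals were not placed on them. Capitals mark the STAT5-type motif TTCNNNGAA, which reads the same on the other strand.
BCL6 promoter, chr3:187745419-187745718 minus strand: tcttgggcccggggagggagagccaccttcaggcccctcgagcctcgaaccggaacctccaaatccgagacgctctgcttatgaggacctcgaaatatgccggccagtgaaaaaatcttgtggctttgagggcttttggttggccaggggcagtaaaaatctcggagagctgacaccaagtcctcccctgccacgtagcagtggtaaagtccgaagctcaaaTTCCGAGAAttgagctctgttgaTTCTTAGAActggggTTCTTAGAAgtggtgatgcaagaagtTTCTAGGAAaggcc
POLK promoter, chr5:75511641-75511940 plus strand: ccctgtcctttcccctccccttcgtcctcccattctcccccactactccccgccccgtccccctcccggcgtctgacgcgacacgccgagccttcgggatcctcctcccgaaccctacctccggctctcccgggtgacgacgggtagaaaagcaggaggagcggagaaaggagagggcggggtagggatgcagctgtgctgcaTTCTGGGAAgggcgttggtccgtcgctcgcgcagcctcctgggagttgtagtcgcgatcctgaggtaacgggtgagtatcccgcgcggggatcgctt
UBE2J1 promoter, chr6:89352673-89352972 minus strand: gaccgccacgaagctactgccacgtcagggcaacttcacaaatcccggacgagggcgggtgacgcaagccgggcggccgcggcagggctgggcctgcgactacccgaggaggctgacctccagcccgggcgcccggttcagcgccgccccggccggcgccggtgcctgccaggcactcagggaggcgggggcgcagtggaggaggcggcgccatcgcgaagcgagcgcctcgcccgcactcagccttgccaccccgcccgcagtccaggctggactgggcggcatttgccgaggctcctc
The motif was found 4 times in the BCL6 window, 1 time in that of POLK and 0 times in that of UBE2J1. It was in the windows of 13 of the 247 genes with a high-value activator STAT5 interval and an entry (5.26%, 95% interval 2.83% to 8.83%), against 355 of 4350 genes of the whole list (8.16%) and 2152 of 27305 promoters (7.88%). A match is a description of these letters and not a binding site.

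Both miRNA genes beside high-value inhibitor BCL6 intervals are shown by their mature strands from RefSeq, with the seed (bases 2 to 8) in capitals. They share no seed.
hsa-miR-581: uCUUGUGUucucuagaucagu
hsa-miR-301a-3p: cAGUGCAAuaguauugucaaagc
hsa-miR-301a-5p: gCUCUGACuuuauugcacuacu
The interval beside MIR581 had 4, 4 and 4 in the 3 inhibitor BCL6 libraries and lay 3.84 Mb from a centromere gap. It was 272 bp wide and had no control peak within 1 kb. The interval beside MIR301A was 18 bp wide, had 4, 3 and 4, and lay 31.97 Mb away.

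The values are whole numbers, 0 or at least 2, that the files do not name; they were read as reads in the peak. Library depth is unknown, and no lower limit for a value of 0 was derived. Ranges in brackets after a share are its 95% Clopper-Pearson bounds; they describe counting error alone and take neighbouring intervals as independent. The labels do not say whether replicate libraries came from separate cultures.

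The highest activator STAT5 values lay beside the centromeres of chromosomes 10 and 21. On chromosome 21, an interval of 8 bp at chr21:9826848-9826855 had 100 and 131 in the 2 libraries, and one of 25 bp at chr21:9826350-9826374 had 45 and 53. Both are listed beside a gene that the files describe as the 5' domain of the small subunit ribosomal RNA, the RNA of the small ribosomal particle. They lay 1.46 Mb from the gap. Both libraries were high at both intervals, while no peak of the 4 control libraries was listed within 1 kb.

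On chromosome 10, 5 intervals 0.13 to 0.14 Mb from the gap had no gene symbol. The interval at chr10:42391972-42392136 had 104 and 84. Its neighbours at chr10:42392393-42392495 and chr10:42392936-42393098 both had 48 and 182, and a further one at chr10:42393896-42393946 had 30 and 182. The fifth, at chr10:42380145-42380228, had 39 and 50 and is listed beside a putative uncharacterized protein. The value of 182 thus stood in 3 intervals of the second library within 2 kb, while the first library gave 48, 48 and 30 there. No control peak was listed within 1 kb of any of these 5, but one at chr10:42381280-42382147, with 3 and 13 in the control BCL6 libraries, lay just beyond 1 kb from the fifth.

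The other leading places near centromeres had lower values. An interval of 12 bp on chromosome Y, 0.38 Mb from the gap, had 22 and 25 and no symbol. On chromosome 16, intervals of 64 and 2 bp, 1.38 Mb from the gap, both had 10 and 25, and another of 325 bp beside them had 4 and 25. RNA5-8SP2, a 5.8S ribosomal RNA pseudogene in the same stretch, had 10 and 10 over 30 bp. MLLT10P1 on chromosome 20, a pseudogene of MLLT10, had 8 and 20 over 27 bp, 0.27 Mb from the gap. On chromosome 2, an interval 0.56 Mb from the gap with no symbol had 6 and 17. The last of the 12 leading places, on chromosome 20 at 4.87 Mb, had 6 and 6, so within the leading places near centromeres the lower of the 2 values ran from 6 to 100.

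**Figure D1:**
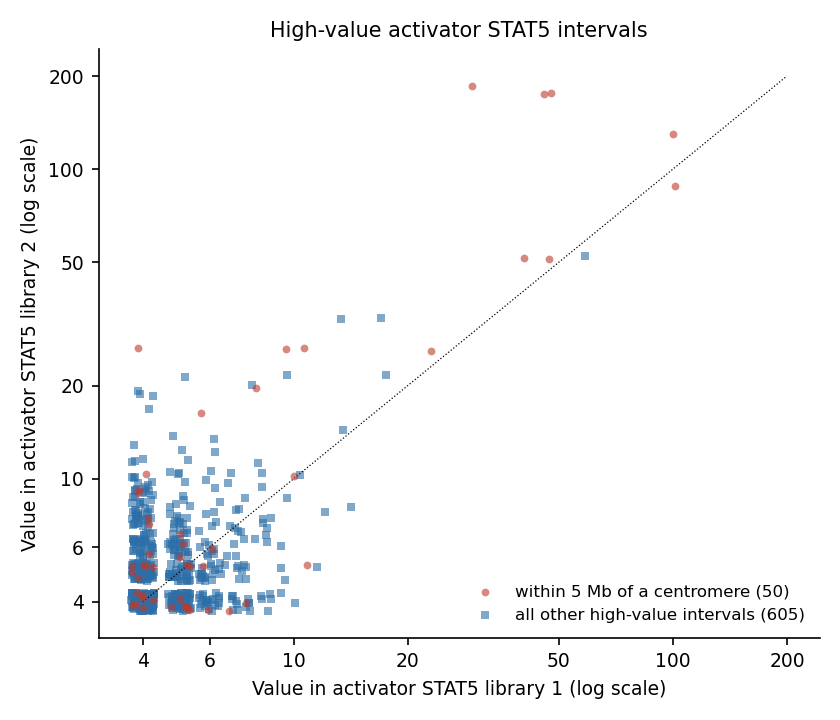
Values of the 655 high-value activator STAT5 intervals in library 1 (horizontal) and library 2 (vertical), both on log axes with a small random shift so that equal whole numbers can be seen; the dotted line marks equal values. Of the 9 intervals at 20 or more in both libraries, 8 lay within 5 Mb of a centromere (red circles) and 1 elsewhere (blue squares).

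Away from centromere gaps the highest activator STAT5 interval stood alone. It lay at chr1:91852660-91852704, was 45 bp wide, had no symbol, and had 58 and 53. DUX4L50, a DUX4-like pseudogene on chromosome 9, had 18 and 23 at one interval and 9 and 23 at a second of 5 bp. Counted from the heterochromatin gap beside the chromosome 9 centromere it lay 2.95 Mb away, and from the centromere gap 18.05 Mb. On chromosome 1, 3 intervals listed beside a cDNA clone had 14 and 15 at chr1:144988307-144988308, 14 and 31 at chr1:144988730-144988827, and 17 and 31 at chr1:144990080-144990205. These 3 lay 2.453 to 2.455 Mb from the heterochromatin gap of chromosome 1 and 20.45 Mb from its centromere gap.

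Further places followed. PDE4DIP, which codes for a scaffold protein of the centrosome and Golgi, had 10 and 10 at one interval and 8 and 19 at another. Its intervals lay 2.541 and 2.543 Mb from the heterochromatin gap of chromosome 1. FANK1, a gene with fibronectin and ankyrin repeats, had 15 and 8 at one interval and 6 and 12 at another. NBPF1, of the neuroblastoma breakpoint family, had 7 and 10, and an interval without symbol 3 kb further on had 12 and 8. An interval of chromosome 2 with no symbol had 9 and 9, and one at chr1:149034586-149035041 had 8 and 11. WDR74, a ribosome assembly factor that starts beside RNU2-2P, described as U2 spliceosomal RNA, had 8 and 10 over an interval of 1 bp. In all of these both libraries had 6 or more, and which library was higher differed between places.

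The inhibitor BCL6 list also had high values beside the centromeres of chromosomes 10 and 16. Near the centromere of chromosome 10, an interval of 136 bp at chr10:42383307-42383442 had 13, 20 and 17 in the 3 libraries, and one of 11 bp at chr10:42398438-42398448 had 8, 66 and 83. The first library stood far below the other 2 at the narrower interval. RNA5-8SP2 had 13, 18 and 15 over 79 bp. On chromosome 4, intervals 0.5 and 0.15 Mb from the gap had 12, 7 and 12, and 4, 4 and 10. On chromosome 16, an interval of 51 bp had 6, 4 and 8 and one of 3 bp had 3, 3 and 6. Besides the MIR581 interval, the remaining 2 near centromeres had 4, 4 and 3 on chromosome 4 and 3, 3 and 3 on chromosome 10.

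Away from centromere gaps, an inhibitor BCL6 interval at chr1:142538149-142538382 had 30, 23 and 17. A second, at chr1:142539351-142539368, had 30, 23 and 4. They lay 0.003 and 0.004 Mb from the heterochromatin gap of chromosome 1 but 18 Mb from its centromere gap. RNU2-42P, a U2 spliceosomal RNA pseudogene on chromosome 10, had 14, 17 and 51 at one interval, 6, 17 and 51 at another and 10, 11 and 23 at the last. The last library was the highest at all 3. DUX4L50 had 15, 12 and 14 over 2 bp, with all libraries close together. Beside the same cDNA clone, intervals at chr1:144988796-144988988 and chr1:144989318-144989461 both had 10, 26 and 32. The place they form lay 2.453 Mb from the heterochromatin gap of chromosome 1.

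Lower places of the inhibitor BCL6 list included NBPF1 and P4HA1. NBPF1 had 11, 3 and 29. P4HA1, a subunit of the enzyme that hydroxylates prolines of collagen, had 4, 6 and 10 over 358 bp, the widest high-value inhibitor BCL6 interval. Intervals with no symbol had 7, 8 and 10 on chromosome 17, 7, 5 and 10 on chromosome 2, 4, 9 and 13 on chromosome 18 and 4, 4 and 10 on chromosome 1. In each of these the last library gave the highest value.

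**Figure D2:**
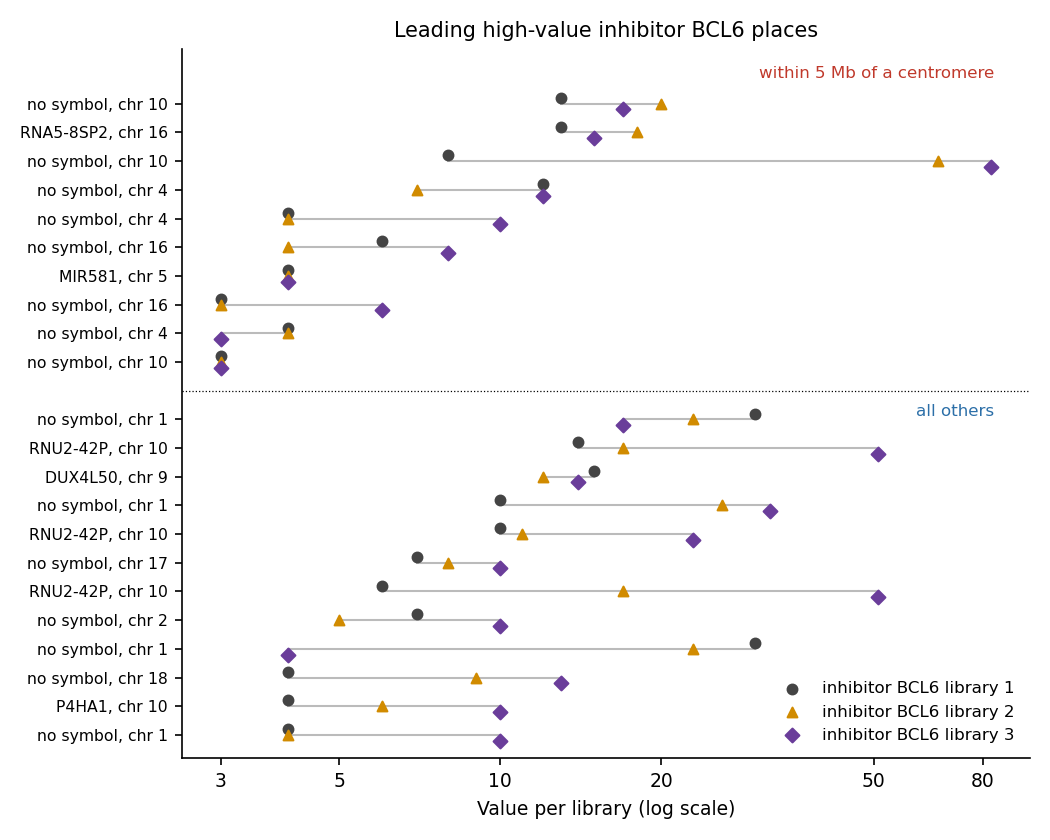
Value in each of the 3 inhibitor BCL6 libraries (log axis) for the 10 high-value places within 5 Mb of a centromere, above the dotted line, and the 12 leading places elsewhere, below it; grey lines join the lowest and highest library, and markers are offset vertically. The chromosome 10 interval with 8, 66 and 83 and the RNU2-42P interval with 6, 17 and 51 show the widest gaps between libraries.

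Position was not used to choose the intervals. Within 5 Mb of a centromere gap lay 50 of the 655 high-value activator STAT5 intervals (7.63%, 5.72% to 9.94%), against 733 of 13392 in the rest of the list (5.47%, 5.09% to 5.87%) and 5.57% of the whole list. Of the inhibitor BCL6 intervals, 10 of 100 did (10%, 4.9% to 17.6%), against 74 of 1552 in the rest of the list (4.77%, 3.76% to 5.95%) and 5.08% of the whole list. At 5 Mb the bounds of the high-value and other shares overlapped in both lists. Within 2 Mb they did not: 24 activator STAT5 intervals (3.66%, 2.36% to 5.40%), against 1.62% (1.41% to 1.85%) of the rest, and 8 inhibitor BCL6 intervals (8%, 3.52% to 15.2%), against 1.48% (0.942% to 2.22%) of the rest. Several of these intervals are neighbours in 1 stretch, on chromosomes 10, 16 and 21 for STAT5 and on chromosomes 10 and 16 for BCL6.

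The share of listed intervals that were high-value was largest right beside the gap. It was 10 of 33 activator STAT5 intervals within 0.5 Mb (30.3%, 15.6% to 48.7%) and 26 of 542 at 2 to 5 Mb (4.797%, 3.16% to 6.95%). For inhibitor BCL6 it was 3 of 6 within 0.5 Mb (50%, 11.8% to 88.2%) and 2 of 53 at 2 to 5 Mb (3.77%, 0.460% to 12.98%). The share near a centromere also differed by value within the activator list: it was 29 of 460 intervals whose lower value was 4 (6.30%), 7 of 127 at 5 (5.51%), 11 of 17 at 10 or more (64.7%) and 8 of 9 at 20 or more. In the inhibitor list it was 3 of 67 intervals whose lowest value was 3 (4.48%) and 2 of 8 at 10 or more (25%). Most high-value intervals near centromeres had 4 or 5 as their lower value, and those with very high values made up most of the top of the activator list. With the heterochromatin gaps of chromosomes 1, 9 and 16 counted as centromere, 60 activator STAT5 intervals (9.16%) and 15 inhibitor BCL6 intervals (15%) were near, against 5.79% and 5.28% of the rest.

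**Figure D3:**
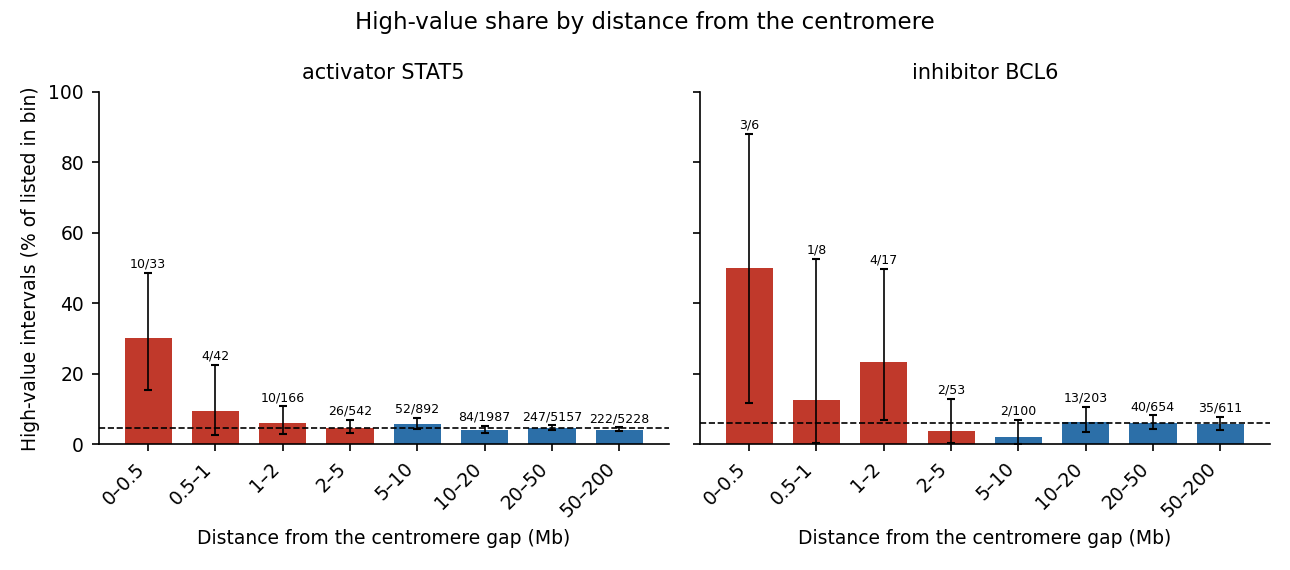
Share of listed intervals that were high-value, by distance from the centromere gap, for activator STAT5 (left) and inhibitor BCL6 (right); bars within 5 Mb are red and farther ones blue, error bars are exact 95% intervals, numbers give high-value over listed intervals and the dashed line is the share over the whole list. The first bin holds 10 of 33 and 3 of 6 intervals, and bins from 2 Mb outward lie between 4.23% and 5.83% for STAT5 and between 2% and 6.40% for BCL6.

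Gene symbols were lacking at many intervals near centromeres. Of the 50 activator STAT5 intervals near centromeres, 23 had no gene symbol (46%, 31.8% to 60.7%), against 209 of the 605 others (34.5%, 30.8% to 38.5%). For inhibitor BCL6 it was 8 of 10 (80%, 44.4% to 97.5%), against 39 of 90 others (43.3%, 32.9% to 54.2%). The bounds of these near and other shares overlapped in both lists. Of the intervals near centromeres that were not high-value, 239 of 733 activator intervals (32.6%, 29.2% to 36.1%) had no symbol. For inhibitor BCL6 it was 22 of 74 (29.7%, 19.7% to 41.5%). Against the high-value intervals near centromeres, these bounds overlapped for activator STAT5 but not for inhibitor BCL6, which rests on 10 intervals. The whole lists had 35.9% and 40.1%. Among the 29 symbols near centromeres in the activator list were 4 olfactory receptor genes or pseudogenes, OR4C3, OR5D16, OR6Q1 and OR9G3P, which is 13.8% of the symbols, against 7 of 390 among the high-value symbols elsewhere (1.79%) and 32 of 457 among the other activator symbols near centromeres (7.002%). OR5D16 had 4 and 4, and OR9G3P had 4 and 6. MIR663AHG, the host gene of the miRNA miR-663a, had 4 and 4 at 0.18 Mb from the gap of chromosome 20, where control STAT5 peaks within 1 kb reached 6 and 9. CNGA1, a cyclic nucleotide-gated channel of rod photoreceptors, had 5 and 5.

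The rule did not use width, but a count of reads in a peak can depend on it, so width is no independent measure. In the activator list the median width was 139, 154, 166 and 185 bp where the lower value was 2, 3, 4 and 5. It was 179.5 bp at 6 and 151 bp at 7. Listed intervals also never overlapped a control peak of their own antibody. High-value activator STAT5 intervals had a median width of 162 bp (150 to 180), against 141 bp in the rest of the list. Those near centromeres had a median of 106 bp, against 168 bp elsewhere. High-value inhibitor BCL6 intervals had a median of 100 bp (71 to 139), against 84 bp in the rest; those near centromeres had 70 bp and the others 103.5 bp. In both lists the high-value intervals near centromeres had the lower median width. The widest high-value interval had 596 bp, and is listed for both APLF, a DNA end-joining factor, and FBXO48, an F-box protein, with 5 and 5.

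Very narrow intervals were about as frequent among high-value intervals as in the rest. Under 50 bp were 115 of 655 activator STAT5 intervals (17.6%, 14.7% to 20.7%), against 18.8% (18.1% to 19.5%) of the rest. For inhibitor BCL6 they were 31 of 100 (31%, 22.1% to 41.0%), against 30.5% (28.2% to 32.8%). Near centromeres 13 of 50 activator STAT5 intervals were under 50 bp (26%, 14.6% to 40.3%), against 102 of 605 elsewhere (16.9%, 14.0% to 20.1%). Some very narrow intervals were listed with high values: the 8 bp on chromosome 21 with 100 and 131, and the 1 bp at WDR74 with 8 and 10. Whether such a value counts reads on the listed bases alone is unknown, since some neighbouring intervals repeated the same values. The WDR74 base directly adjoined a control STAT5 peak of 572 bp with 2 and 10.

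**Figure D4:**
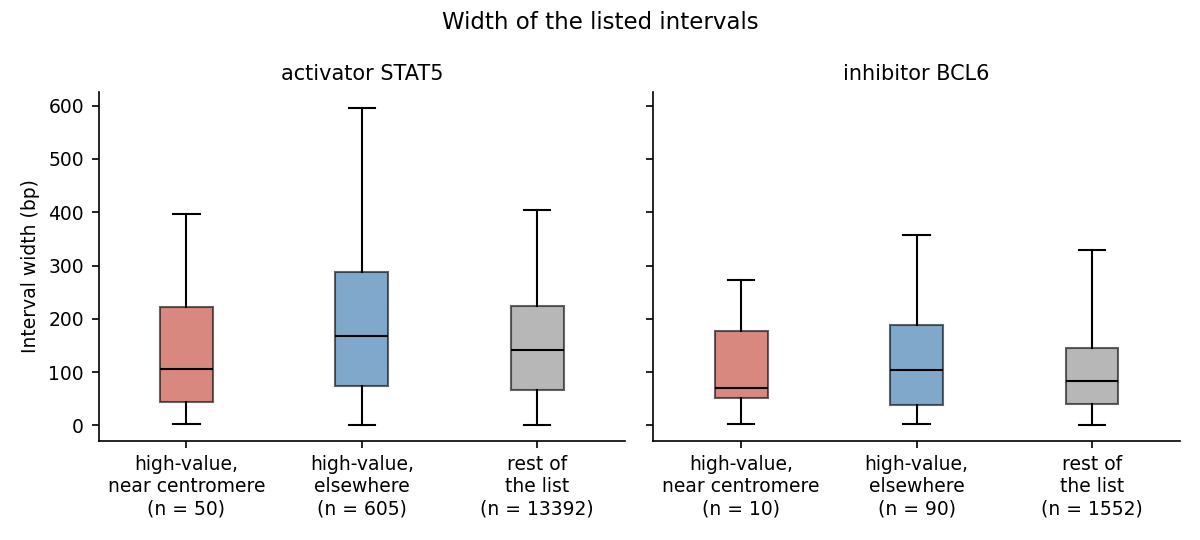
Width in bp of high-value intervals near a centromere, high-value intervals elsewhere and the rest of the list, for activator STAT5 (left) and inhibitor BCL6 (right); boxes span the quartiles with the median as a line, and whiskers run to the narrowest and widest interval. The medians are 106, 168 and 141 bp for STAT5 and 70, 103.5 and 84 bp for BCL6.

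Some neighbouring intervals repeated the same values. In the activator list 32 high-value intervals formed 16 pairs of consecutive intervals with the same values in both libraries, and the inhibitor list held 1 such pair. Such repeats were rarer among high-value activator intervals, 32 of 655 (4.885%, 3.37% to 6.83%), than in the rest, 1583 of 13392 (11.8%, 11.3% to 12.4%). For inhibitor BCL6 it was 2 of 100 (2%, 0.243% to 7.04%), against 60 of 1552 (3.87%, 2.96% to 4.95%), and these bounds overlapped. The pairs lay 35 to 440 bp apart with a median of 287.5 bp. In 11 of the 16 activator pairs every base between the pieces was covered by control STAT5 peaks, and this was also so for control BCL6 peaks in the inhibitor pair. None of the intervals of either treated list, high-value or other, overlapped a control peak of its own antibody, and 201 of 655 activator STAT5 intervals touched one (30.7%, 27.2% to 34.4%), against 18.3% (17.6% to 18.96%) of the rest. Counted as places, the 655 intervals made 639 places, 48 of them near a centromere.

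Pairs with the same values lay at varied genes. DHX57 and MORN2, listed for the same intervals, had 4 and 18 in both pieces. HIST1H1C, a linker histone gene, had 7 and 5 in both, and RNU5A-8P, a U5 spliceosomal RNA pseudogene, had 8 and 4. MAML1, a NOTCH coactivator, had 6 and 8, and SNRPB, a core protein of spliceosomal particles, had 5 and 4. Only 2 of the 16 pairs lay near a centromere, the chromosome 10 pair with 48 and 182 and the chromosome 16 pair with 10 and 25. In single libraries, a value of 10 or more stood in 58 high-value activator STAT5 intervals, and in 23 of them the same value stood again within 5 kb in that library. This was so for 8 of the 16 near centromeres. In the inhibitor list it was 10 of 25, and 0 of the 5 near centromeres.

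Control values were not part of the rule that chose the intervals. The treated lists were still not independent of the control peaks, since no listed interval overlapped one of its own antibody. A control value of 5 or more in any of the 4 control libraries stood within 1 kb of 100 of 655 high-value activator STAT5 intervals (15.3%, 12.6% to 18.3%), against 9.7% (9.20% to 10.2%) of the rest. For inhibitor BCL6 it was 29 of 100 (29%, 20.4% to 38.9%), against 10.8% (9.26% to 12.4%). Overlap with a control peak of the other antibody was 32.5% (28.9% to 36.3%) for high-value activator STAT5 intervals, against 25.2% (24.5% to 26.0%) of the rest. It was 27% (18.6% to 36.8%) for high-value inhibitor BCL6 intervals, against 23.5% (21.4% to 25.6%) of the rest, and these bounds overlapped.

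Seen from the control peaks, the share with a high-value treated interval within 5 kb was larger for peaks of 10 or more than for those of 2. Of control BCL6 peaks with a highest value of 10 or more, 9 of 23 had one (39.1%, 19.7% to 61.5%), against 1209 of 48645 peaks with a highest value of 2 (2.49%, 2.35% to 2.63%). Of control STAT5 peaks it was 3 of 16 (18.8%, 4.05% to 45.7%), against 1163 of 48487 (2.40%, 2.26% to 2.54%). All 5 control BCL6 peaks of 10 or more within 5 Mb of a centromere had a high-value treated interval within 5 kb. For 2 of the 3 such control STAT5 peaks this was so too. These control peaks were picked by their highest value, so a raised value in 1 empty-vector library was fixed by the choice. In the 5 control BCL6 peaks the 2 libraries had 3 and 18, 6 and 14, 3 and 13, 2 and 13, and 6 and 12.

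**Figure D5:**
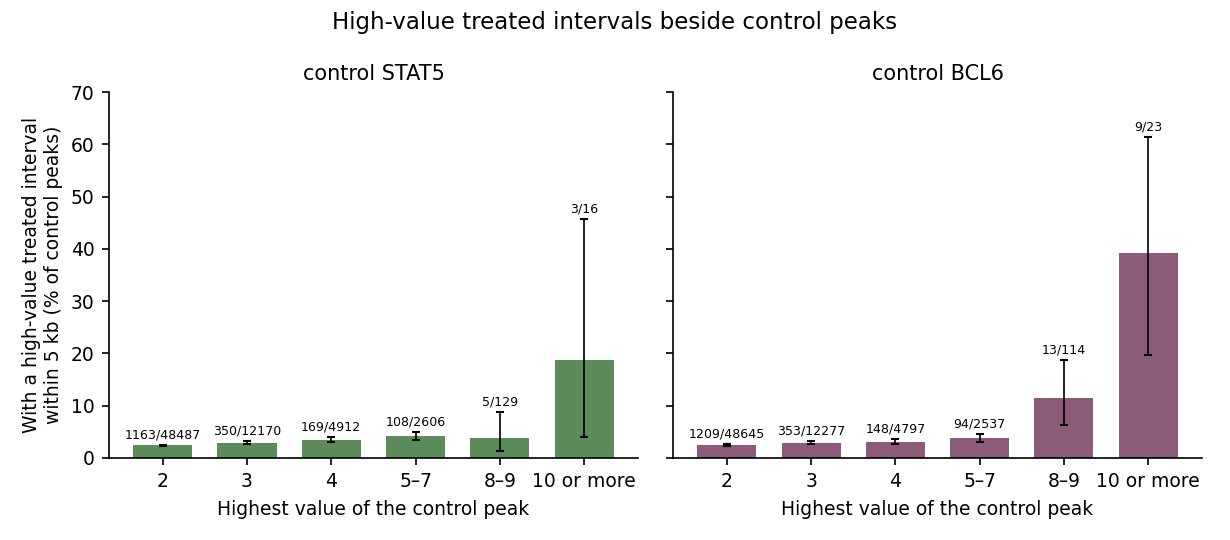
Share of control STAT5 peaks (left) and control BCL6 peaks (right) that have a high-value treated interval within 5 kb, by the highest value of the control peak in its 2 libraries; error bars are exact 95% intervals and numbers give the counts. The share is 2.40% and 2.49% at a value of 2, and 18.8% and 39.1% at 10 or more.

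At named places the control values were as follows. Beside NBPF1 the 2 control BCL6 libraries had 3 and 22 in a peak of 1242 bp, the highest value of that list. Beside PDE4DIP they had 15 and 2, in the chromosome 16 stretch 6 and 14, and at RNA5-8SP2 2 and 13. On chromosome 10, the control BCL6 peak beside the activator interval with 39 and 50 had 3 and 13. The highest value of the control STAT5 list, 13, stood in 2 peaks. One, on chromosome 4 at 0.15 Mb from the gap, had 3 and 13 and overlapped the inhibitor BCL6 interval with 4, 4 and 10; the other, at HOXA11, a homeobox gene, had 2 and 13 at 30.83 Mb from a gap. The 2 control libraries differed widely in each of these peaks. No peak of the 4 control libraries was listed within 1 kb of the activator intervals with 100 and 131, 104 and 84, 48 and 182, 45 and 53, 39 and 50, or 30 and 182, nor at the inhibitor BCL6 intervals with 30, 23 and 17 and 30, 23 and 4. An activator or inhibitor value and a control value come from different lists with unknown depth, so no fold was computed. Control peaks with a highest value of 8 or more lay near a centromere in 15 of 145 control STAT5 cases (10.3%, 5.91% to 16.5%) and 8 of 137 control BCL6 cases (5.84%, 2.55% to 11.2%), against 6.15% and 6.31% of all peaks of those lists.

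The 2 treated lists shared places although they come from different antibodies and libraries. There were 40 pairs of a high-value activator STAT5 and a high-value inhibitor BCL6 interval within 5 kb, which involved 21 of the 655 and 17 of the 100 intervals (3.21% and 17%). Among the other activator intervals, 59 of 13392 (0.441%, 0.336% to 0.568%) lay within 5 kb of a high-value inhibitor interval. Of the other inhibitor intervals, 58 of 1552 (3.74%, 2.85% to 4.805%) lay that close to a high-value activator interval. The 40 pairs fell in 9 separate regions, 2 of them near a centromere, and only 3 pairs shared a base. The genes with a high-value interval in both lists were APLF, DUX4L50, FANK1, FBXO48, NBPF1, PIGF and RNA5-8SP2. PIGF, which acts in the synthesis of glycosylphosphatidylinositol anchors, had 6 and 14 in the activator STAT5 libraries over 3 bp and 3, 5 and 6 in the inhibitor BCL6 libraries over 17 bp. At APLF and FBXO48 the inhibitor BCL6 libraries had 3, 4 and 3. FANK1 had 4, 10 and 4 there, next to the RNU2-42P intervals. Within 5 kb of any interval of the other treated list lay 73 of 655 high-value activator STAT5 intervals (11.1%, 8.84% to 13.8%), against 6.10% (5.70% to 6.52%) of the rest. For inhibitor BCL6 it was 55 of 100 (55%, 44.7% to 65.0%), against 42.1% (39.6% to 44.6%).

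A stretch of chromosome 2 more than 5 Mb from the centromere also held many high-value intervals. Between 30 and 75 Mb of chromosome 2 lay 85 of the 655 high-value activator STAT5 intervals (12.98%, 10.5% to 15.8%), against 543 of 13392 in the rest of the list (4.06%, 3.73% to 4.40%). It held 19 of the 100 high-value inhibitor BCL6 intervals (19%, 11.8% to 28.1%), against 134 of 1552 in the rest (8.63%, 7.28% to 10.1%). In the control lists, too, its share was larger among peaks of higher value. The stretch held 177 of the 2751 control STAT5 peaks with a value of 5 or more (6.43%, 5.55% to 7.42%), against 2.63% of all peaks of that list. For control BCL6 it was 207 of 2674 (7.74%, 6.76% to 8.82%), against 2.91%. The stretch was chosen after the values were seen.

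The activator intervals of that stretch named 42 symbols. EPCAM, the epithelial cell adhesion molecule, had 4 and 18 in the activator STAT5 libraries over 490 bp, so the second library was far higher. HEATR5B, a protein with HEAT repeats, had 5 and 20, and OTX1, a homeobox transcription factor, had 5 and 10. FANCL, the ubiquitin ligase of the Fanconi anaemia pathway, had 3, 3 and 6 in inhibitor BCL6. The highest lower value in the stretch was 9 for activator STAT5 and 4 for inhibitor BCL6, against 100 and 13 near centromeres, and 77 of the 85 activator intervals had a control STAT5 peak within 1 kb. This was so for 493 of all 655 high-value activator intervals (75.3%) and 9497 of the 14047 listed (67.6%).

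Genes of 5 lists around the study's pathways were looked up in both treated lists. Of 81 genes of DNA repair and damage signalling, 36 had any activator STAT5 interval and 2 a high-value one. RAD51B, a protein of homologous recombination, had 5 and 8 in both of its pieces. Of 24 STAT5 and BCL6 target genes, 6 had any interval and only BCL6 a high-value one. Of 30 RAC1, PAK and JAK-STAT genes, 6 had any and 0 a high-value one. Of 36 genes of WNT signalling and colon epithelium, 19 had any and 3 a high-value one. Besides EPCAM these were HNF4A, a nuclear receptor of gut epithelium, with 4 and 9, and ZNRF3, a membrane ubiquitin ligase that restrains WNT signalling, with 5 and 5. Of 33 cell cycle and apoptosis genes, 15 had any and 2 a high-value one: BAX, which permeabilises mitochondria, with 5 and 4, and CASP9, the initiator caspase of that pathway, with 4 and 5. Over the whole activator list, 419 of 7673 symbols had a high-value interval. In the inhibitor list 4 DNA repair genes had any interval and 1 a high-value one, FANCL. Of the other lists, 1 STAT5 and BCL6 target, 4 RAC1, PAK and JAK-STAT genes, 1 WNT and colon gene and 4 cell cycle and apoptosis genes had any and 0 a high-value one. Over the whole inhibitor list, 53 of 965 symbols had a high-value interval. Families with duplicated copies, among them RNA5SP genes that need not lie beside centromeres, were also looked up, by the start of the symbol. They gave 10 of the 419 high-value activator symbols, against 136 of all 7673. By place, they gave 1 of the 29 high-value symbols near centromeres and 9 of the 390 elsewhere. Most of the 10 were RNA5SP genes. In the inhibitor list they gave 4 of the 53 high-value symbols, against 18 of all 965.

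Protein-coding genes made up most symbols at high-value intervals. In the activator list 289 of 419 symbols were protein-coding (69.0%), against 68.2% in the whole list, and 88 were pseudogenes (21.002%), against 21.3%. In the inhibitor list 30 of 53 were protein-coding (56.6%), against 68.6%, and 15 were pseudogenes (28.3%), against 21.04%. U2 spliceosomal RNA genes were named by 7 of 655 activator intervals (1.07%, 0.431% to 2.19%), against 21 of 13392 in the rest (0.157%, 0.0971% to 0.240%). In the inhibitor list they were named by 3 of 100 (3%, 0.623% to 8.52%), all at RNU2-42P, against 5 of 1552 in the rest (0.322%, 0.105% to 0.750%). Ribosomal RNA was named by 12 activator intervals (1.83%, 0.9501% to 3.18%), against 0.911% (0.757% to 1.09%) of the rest, and these bounds overlapped. Other RNA classes of the activator list were level or lower in part. U6 spliceosomal RNA had 2.29% against 2.20%, signal recognition particle RNA 1.37% against 1.14% and microRNA 1.68% against 1.29%. Y RNA had 1.07% against 1.87%, and small nucleolar RNA 1.83% against 2.55%. Near centromeres ribosomal RNA was named by 4 of 50 (8%, 2.22% to 19.2%), against 8 of 605 elsewhere (1.32%, 0.573% to 2.59%). The 7 RNA5SP genes of the activator list with a high-value interval, described as 5S ribosomal RNA, had 4 to 6 in both activator libraries, away from centromeres.

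At the threshold itself the choice was narrow. In the activator list 156 intervals had 4 in both libraries, and 1171 missed by 1 in 1 library, with median widths of 155 and 166 bp. RN7SKP91 and NCDN were inside with 4 and 4, and RNF223 and SLC35E2B were outside with 4 and 3. In the inhibitor list 7 intervals had 3 in all libraries, and 450 missed by 1 in 1 library, with median widths of 136 and 94 bp. RN7SL333P and PPM1G were inside with 3, 3 and 3, while ENO1 with 2, 3 and 6 was outside.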

How the data were processed

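ChIP-seq intervals of 9 libraries were used. The submitters' processing notes name CASAVA 1.8.2, Bowtie 0.12.7 and the build GRCh37. No source used here names a peak caller or cutoff. The authors deposited lists of intervals within 3000 bp upstream and 1000 bp downstream of Ensembl gene starts, with a whole-number value per library that was entered as a score. The deposited width and distance from a gene start are in bp. Each distinct interval was counted once, and 5 libraries were not analysed here. In the deposited files 2 lists have names of a treated condition but columns of control libraries; lists are called by the libraries they hold.

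Centromere gaps were written from general knowledge of GRCh37 and checked: 0 listed intervals lay inside one. Neighbours were consecutive intervals at most 5000 bp apart, and overlap meant at least 1 bp. No test was made, since values chose the members. In each list and class the 12 places ranked first by their lowest value were named, with all gene-list members, genes in both lists and threshold examples; a few genes that this rule names are not reported here. Other named genes were picked with their values in view: those shown with promoters or miRNAs, and those of repeated pairs, of the chromosome 2 stretch and near centromeres. The members and lists were chosen with earlier results of these data known. Of 465 symbols, 459 matched the RefSeq table (GRCh38.p14). Interval functions were tested on simulated data. Python 3.11.15, pandas 2.3.3, numpy 2.4.6 and scipy 1.17.1 were used.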

Additional observations from a re-analysis of the deposited data

How the results depend on the processing

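Of 52 values computed under the alternatives, 37 were labelled the same. Shares and median widths were the same within the bounds of the main value, and counts if they moved by less than 1.5 times. With 3 or more in both libraries 2376 activator STAT5 intervals were high-value and with 5 or more 195, and judged on 1 library alone 2318 to 3716. With 4 or more in all 3 libraries 33 inhibitor BCL6 intervals remained past the threshold, and judged on 2 libraries 192 to 284. The share of activator STAT5 intervals near a centromere was 15.57% at 10 Mb and 3.664% at 2 Mb, against 11.92% and 1.716% of the whole list. At 5 Mb it was 10.77% with 5 or more in both libraries, and 5.947% and 5.953% judged on 1 library. The whole activator list had 5.574% there. That of inhibitor BCL6 was 21.21% with 4 or more and 6.204% to 7.042% judged on 2 libraries, against 5.085% of its whole list. Overlap of activator STAT5 intervals with control BCL6 peaks was 21.37% where at least 50% of the interval had to be covered, and 27.91% to 28.9% judged on 1 library. The cause was not tested where a share moved with the threshold. No paired analysis was possible because the results come from no test and intervals were chosen by values of all libraries of a list. Unknown depth and values mostly near their minimum limit what a single value shows.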
